A study of Mus musculus with 39 samples.

Results

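Brains of mice given the nerve agent soman were compared at day 14 and at day 1, dose by dose, at 3 doses. The comparison took every library labelled with either day, 18 of the 39 libraries of the study: 9 from day 14 and 9 from day 1, with 3 libraries at each dose. Doses are given as fractions (1/10, 1/5 and 1/2) of the LD50, the amount lethal to 50% of animals. All 18 came from mice injected with soman under the skin. The other libraries were from days 3 and 7 at the same doses and from 3 brains of mice given saline, and these served as reference levels. The labels give neither strain, sex nor age, nor the day on which the saline brains were taken, nor whether soman was given once or repeatedly. They call the 3 libraries of a group biological replicates, without saying how many animals went into each. No saline group is labelled for each day, so time since dosing, any longer exposure, the age of the animals and any handling shared by the brains of a day cannot be told apart.

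Soman is an organophosphate that inactivates acetylcholinesterase, the enzyme that clears acetylcholine from synapses. Excess acetylcholine drives neurons to fire, and firing switches on immediate early genes, a fast first wave of transcription. Cells also adjust 2 sets of protein-folding helpers. Heat shock proteins serve the cytosol, and a separate set of chaperones, governed by the unfolded protein response, serves the endoplasmic reticulum (ER).

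Values were in FPKM, a level scaled to transcript length and to the reads of a library, and the test covered the 14701 genes that reached 1 FPKM in 3 or more of the 39 libraries. Differences are given as day 14 minus day 1 on the log2(FPKM + 1) scale, with their standard error (SE), so that a difference of 1 is a doubling of a well expressed gene and less than the true change of a weak one. The FPKM of the 18 libraries summed to 296479 to 313178, and 24769 to 27997 genes were above 0. The defining markers of neurons, oligodendrocytes and astrocytes were all present, with Snap25, a protein of synaptic vesicle release, at 594 to 788 FPKM. The pituitary hormone genes Gh and Prl had medians under 1 FPKM at both days, though 1 day-1 library had 38.4 FPKM of Gh.

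Of the 18 libraries, 5 stood apart. They were replicate 3 at day 1 for every dose, and replicate 3 at day 14 for 1/10 and 1/5 LD50. Where replicates 1 and 2 differed by more than 2-fold in a gene, replicate 3 fell near their middle (position 0.3 to 0.7 between both) in 46.3 to 77.6% of such genes. When the other 13 libraries were read in the same way, the share was 0 to 28.6%. The median position in the 5 libraries was 0.432 to 0.529, where 0.5 is the exact middle. Among the reference libraries saline replicate 3 lay between its fellows in 66.7% of such genes and day 7 replicate 2 of 1/10 LD50 in 65.0%. No libraries held identical values. A library midway between 2 others narrows the spread within its group, so counts below are also given without these 5, which leaves 2 libraries in 5 of the 6 groups. Comparisons with saline are also given without saline replicate 3, a setting chosen after seeing the data. Calls lost to fewer libraries and calls lost to a wider spread cannot be told apart.

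Over the 3 doses, 1069 genes were higher at day 14 than at day 1 (7.27% of those tested) and 1128 were lower (7.67%), together 2197 or 14.9% (limma, Benjamini-Hochberg adjusted p below 0.05). The largest rises were in immediate early genes and in heat shock and ER chaperones. Haemoglobin, elastin, collagen and vessel wall genes were among the largest falls. Without the 5 libraries 404 genes rose (2.75%) and 388 fell (2.64%), and 782 of these 792 (5.39%) were also called with all 18. In 125 genes all 9 day-14 libraries lay above all 9 day-1 libraries (0.85%), and in 149 they lay below (1.01%). Within each of the 3 doses, all day-14 libraries lay above all day-1 libraries in 251 genes (1.71%) and below them in 282 (1.92%).

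Arc, which encodes a protein that neurons make at active synapses, rose most of the named genes. At 1/10 LD50 its level was 10.7, 14.9 and 12.2 FPKM in the 3 day-1 libraries, against 63.9, 49.3 and 61.2 at day 14. The middle dose had 27.8, 25.7 and 26.8 FPKM at day 1 and 70.7, 61.8 and 63.8 at day 14. At 1/2 LD50 they had 18.8, 15.4 and 17.7 FPKM at day 1 and 62.6, 55.6 and 56.0 at day 14. Every day-14 library was thus above every day-1 library, and saline, at 37.6 to 43.1 FPKM, lay in the gap between the days. The difference was 1.69 (SE 0.13, adjusted p 3.17e-10 by limma), a 3.21-fold rise of the mean FPKM, and it was 2.12, 1.26 and 1.69 from the lowest to the highest dose.

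Fos, a transcription factor subunit and a common marker of recent firing, had 3.22 to 5.69 FPKM at day 1 and 13 to 17 at day 14, with no overlap. It rose by 1.41 (SE 0.14, adjusted p 1.56e-08), and saline had 10.4 to 12.7 FPKM. Nr4a1, a nuclear receptor induced by activity, had 8.44, 14.1 and 9.15 FPKM at day 1 and 38.0, 31.6 and 36.3 at day 14 at the lowest dose. From day 1 to day 14 at 1/5 LD50 it went from 19.4, 11.8 and 16.5 FPKM to 38.1, 36.4 and 40.2, and at 1/2 LD50 from 11.3, 12.2 and 11.6 to 32.7, 30.7 and 25.4. The days did not overlap at any dose, and the lowest day-14 value, 25.4 FPKM, was also above all saline libraries (20.6 to 22.0). The rise of Nr4a1 was 1.39 (SE 0.13, adjusted p 1.56e-08).

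Of 34 immediate early genes tested, 30 rose, none fell and the median difference was 0.55, beside a median of 0.01 over all tested genes. Without the 5 libraries 26 of them rose. The list was written from general knowledge, as were all lists here. Transcription factors among the risen were Junb (1.10), Fosb (0.90), Egr1 (0.88), Npas4 (0.84), Nr4a3 (0.77), Egr4 (0.70), Fosl2 (0.68) and Egr3 (0.68). Dusp1, Dusp4 and Dusp6, phosphatases that switch MAP kinases off again, rose by 0.90, 0.70 and 0.52. Secreted factors rose by less, Bdnf, a growth factor of neurons, by 0.42 and Nptx2, which gathers glutamate receptors at synapses, by 0.35. The members that did not pass were Jun (0.01), Jund (-0.02), Dusp5 (0.32) and Ptgs2 (0.16).

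Saline lay between the days for this list. Against it, 6 members were lower at day 1 and 7 were higher at day 14, with medians of -0.25 and 0.26. Without saline replicate 3 these counts were 2 and 3, and 0 and 2 when the 5 libraries were left out too. The background share of all genes was 0.306% lower at day 1 and 0.156% higher at day 14. Both comparisons use the same 3 saline libraries, so they are set side by side only. Npas4, a factor induced by calcium entry in neurons, was 0.92 below saline at day 1 (adjusted p 0.00446, and 0.0636 without saline replicate 3) and differed from it by -0.08 at day 14 (adjusted p 0.921). Fosb differed from saline by -0.23 at day 1 (adjusted p 0.549) and was 0.67 above it at day 14 (adjusted p 0.000651, and 0.0147 without that library). Fosb had 0.60 to 1.08 FPKM at day 1, 2.06 to 2.91 at day 14 and 1.02 to 1.3 in saline.

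**Figure D1:**
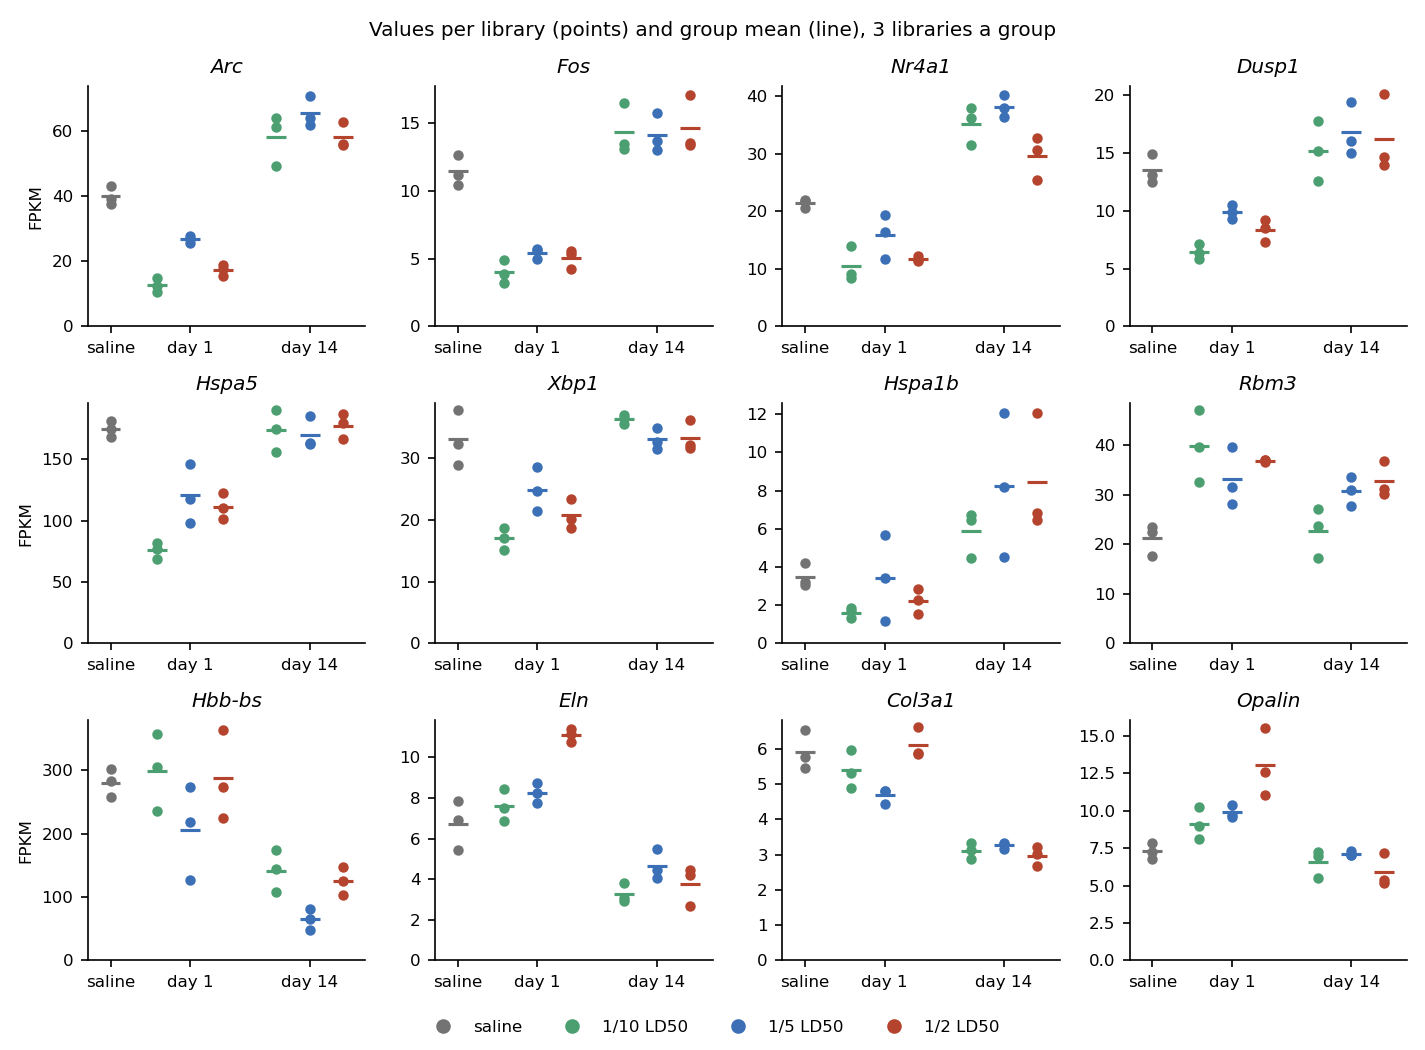
Level in FPKM of 12 genes in each saline, day-1 and day-14 library (points, coloured by dose; lines are means of 3 libraries). Arc, Fos, Nr4a1, Dusp1, Hspa5 and Xbp1 have all 9 day-14 points above all 9 day-1 points, Eln, Col3a1 and Opalin have them below, and Hspa1b, Rbm3 and Hbb-bs overlap.

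ER chaperones were the next group. Hspa5, also called BiP, is the main chaperone of the ER lumen and holds the unfolded protein sensors inactive. At 1/10 LD50 it had 77.0, 69.0 and 81.8 FPKM at day 1 and 175, 156 and 190 at day 14. At 1/5 LD50 it had 97.9, 146 and 118 FPKM at day 1 and 185, 162 and 163 at day 14, and at 1/2 LD50 101, 122 and 110 at day 1 and 167, 187 and 179 at day 14. The days did not overlap, and the day-14 libraries spread around the saline libraries, which had 168 to 181 FPKM. Hspa5 rose by 0.79 (SE 0.07, adjusted p 9.38e-09). It was 0.80 below saline at day 1 (adjusted p 5.67e-05, and 0.00345 without saline replicate 3) and 0.01 below it at day 14 (adjusted p 0.984).

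Of 25 tested genes of the ER list, 19 rose and none fell, with a median of 0.29, and 18 rose without the 5 libraries. Sdf2l1, a partner of Hspa5, rose by 1.02, the folding enzyme Pdia4 by 0.72, Xbp1, the transcription factor of the response, by 0.71 and the secreted factor Manf by 0.70. Creld2 rose by 0.64 and Herpud1, which takes part in clearing misfolded proteins, by 0.53. The stress factors Atf4 and Ddit3 rose by 0.29 and 0.46. The members not past the test were P4hb, Atf6, Sel1l, Edem1, Chac1 and Asns, with differences of 0.04 to 0.09. Against saline, 13 of the 25 were lower at day 1 and none was lower at day 14, where 1 was higher. Without saline replicate 3, 9 were lower at day 1 and none was higher at day 14, and without the 5 libraries as well 5 were lower at day 1.

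Some genes of this response carry the ER stress response element, which the factors Atf6 and Xbp1 are known to act through. It was searched as a pair of fixed ends, CCAAT and CCACG, with exactly 9 bases of any kind between them. RefSeq start sites on GRCm38.p6 were searched on both strands over the 250 bases before the start, and 23 of the 26 listed genes had an entry. The element was found in 8 of the 23 and in 37 of all 32851 promoters (0.113%). All 8 genes that carry it rose, with a median of 0.36, and of the 14 tested list members whose promoter lacks these letters 9 rose, with a median of 0.26. Outside the list the element was found at 27 genes, of which 10 were tested. There Derl3, a channel protein for clearing ER proteins, rose (0.27, adjusted p 0.0115), and Pan2 and Zfp57 fell (-0.20 and -0.26). A match of letters is a description and not evidence of a bound site. The 8 sites are shown because each belongs to a gene that rose, although 9 other risen genes of the list lack these letters in the window. Each is written in the direction in which the letters read CCAAT, with the element in capitals and 12 bases on each side.
Hspa5, chr2:34772013-34772055, gene on the plus strand: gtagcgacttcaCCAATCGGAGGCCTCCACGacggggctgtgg
Hsp90b1, chr10:86705521-86705563, minus strand: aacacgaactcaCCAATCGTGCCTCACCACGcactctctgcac
Pdia6, chr12:17266479-17266521, plus strand: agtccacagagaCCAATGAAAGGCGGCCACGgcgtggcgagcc
Creld2, chr15:88819508-88819550, plus strand: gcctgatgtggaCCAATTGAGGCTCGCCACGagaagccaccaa
Dnajc3, chr14:118937815-118937857, plus strand: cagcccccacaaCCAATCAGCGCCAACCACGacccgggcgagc
Calr, chr8:84847063-84847105, minus strand: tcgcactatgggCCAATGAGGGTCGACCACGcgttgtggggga
Canx, chr11:50325788-50325830, minus strand: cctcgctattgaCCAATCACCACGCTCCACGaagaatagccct
Syvn1, chr19:6046520-6046562, plus strand: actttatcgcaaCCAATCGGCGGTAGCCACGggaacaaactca

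The letters between the 2 fixed ends differ from gene to gene, and the element lies 25 to 143 bases before the start. In Hsp90b1, the ER form of the Hsp90 chaperone, 2 matches were found and the nearer is shown. The sites of Hspa5, Pdia6, Dnajc3, Canx and Syvn1 read CCAAT toward the gene and those of Creld2, Calr and Hsp90b1 on the opposite strand. The rises of these genes over doses were 0.79 in Hspa5, 0.64 in Creld2, 0.48 in Pdia6, 0.43 in Dnajc3, 0.29 in Hsp90b1, 0.19 in Calr and 0.13 in both Syvn1 and Canx. The whole window of Hspa5, chr2:34771840-34772089 on the plus strand, shows the element 46 bases before the start.
Hspa5 promoter: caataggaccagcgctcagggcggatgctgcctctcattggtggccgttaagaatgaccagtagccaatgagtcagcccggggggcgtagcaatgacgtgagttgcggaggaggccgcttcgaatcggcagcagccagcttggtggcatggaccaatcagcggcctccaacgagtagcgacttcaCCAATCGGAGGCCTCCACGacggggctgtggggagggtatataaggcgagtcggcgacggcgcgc

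The same search in the other lists found fewer matches. The cyclic AMP response element TGACGTCA was in 4 of 29 immediate early genes with an entry (Btg2, Dusp1, Maff and Plk2), against 1.55% of all promoters. The heat shock element was in 2 of 17 heat shock genes, against 0.466%. These were Hspd1 and Hspe1, which encode mitochondrial chaperones, and whether their matches are separate sites was not checked.

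Heat shock proteins of the cytosol and of mitochondria rose alongside. Of 22 tested, 18 rose and none fell, with a median of 0.31, and 15 rose without the 5 libraries. Hspa1b, a stress-inducible Hsp70, had 1.32, 1.83 and 1.68 FPKM at day 1 and 6.72, 4.48 and 6.47 at day 14 at 1/10 LD50. For 1/5 LD50 the day-1 values of 1.18, 5.68 and 3.4 FPKM overlapped with the day-14 values of 12.0, 4.51 and 8.17, and at 1/2 LD50 1.55, 2.84 and 2.28 stood against 6.46, 12.0 and 6.82. Hspa1b rose by 1.34 (SE 0.17, adjusted p 1.67e-06) and its near-identical copy Hspa1a by 1.18, and reads can be split between these copies in either way. Dnajb1, which activates Hsp70, had 8.79 to 13.6 FPKM at day 1 and 14.4 to 19.2 at day 14, with no overlap, and rose by 0.68 (adjusted p 3.13e-09). Hsph1, which frees Hsp70 of its nucleotide, rose by 0.52, the small chaperone Hspb1 by 0.86 and the mitochondrial chaperones Hspe1 and Hspd1 by 0.36 and 0.22. Hspa4l (0.32), Hspb8 (0.21), Cryab (0.21) and Hsf1, the factor that drives this set (0.09), did not pass. At day 1, 5 of the 22 were below saline, but 1 without any one of saline replicates 2 and 3 and 2 without replicate 1, and at day 14 none passed against saline.

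The cold-inducible RNA-binding proteins went the other way. Rbm3 had 32.6, 47.1 and 39.7 FPKM at day 1 and 27.1, 17.3 and 23.8 at day 14 at 1/10 LD50. In the middle dose it had 28.2, 39.7 and 31.6 FPKM against 33.6, 27.7 and 31.0, and at 1/2 LD50 36.9, 36.7 and 37.1 against 36.7, 30.2 and 31.2. Only at the lowest dose were the days apart. Over doses Rbm3 fell by 0.35 (SE 0.08, adjusted p 0.0038), and it was 0.75 above saline at day 1 (adjusted p 0.000725, and 0.00397 without saline replicate 3). Cirbp fell by 0.27 (adjusted p 0.0168, and 0.0887 without the 5 libraries) and the splicing factor Srsf5 by 0.37 (adjusted p 8.6e-08).

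Glucocorticoid target genes rose in 9 of 15 tested, with none lower, a median of 0.29 and 8 without the 5 libraries. They included the receptor co-chaperone Fkbp5 (0.33), Tsc22d3 (0.33), the kinase Sgk1 (0.29), Pdk4 (0.39) and Cdkn1a (0.59). Among 19 clock genes 5 rose and Dbp fell as a mean over doses (-0.26), and 3 rose and none fell without the 5 libraries. The direction of Dbp differed between doses, as given below. Its fall was also lost without day 1 replicate 2 of 1/10 LD50 (adjusted p 0.0525). Per1, which is also an immediate early and a glucocorticoid target, rose by 0.61 (SE 0.07, adjusted p 1.25e-06), Per2 by 0.51 and Bhlhe40 by 0.42. The clock factors Clock, Arntl and Npas2 had 0.06, 0.18 and 0.13 and did not pass. The labels give no time of day for the collection of the brains, and its part in these differences was not tested.

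**Figure D2:**
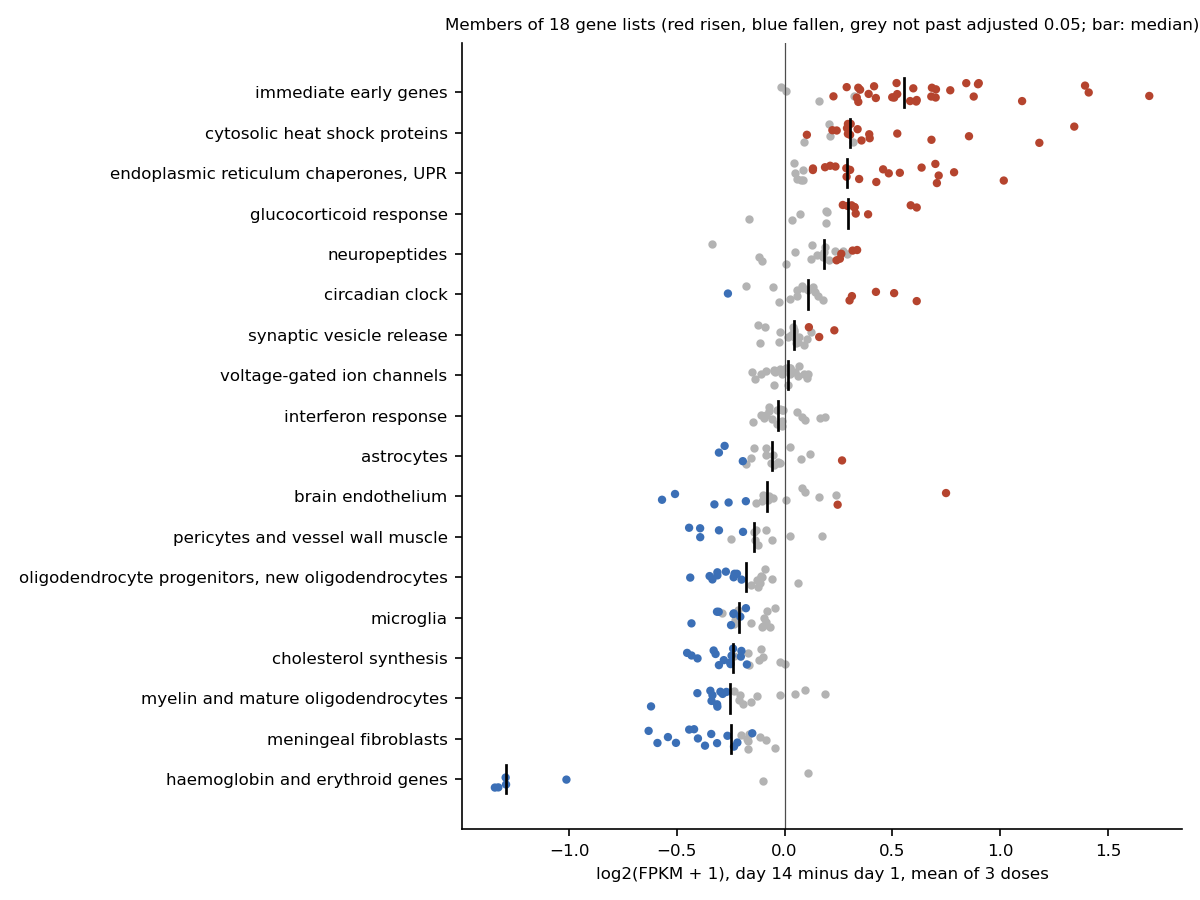
Difference between day 14 and day 1 over doses on the log2(FPKM + 1) scale for each tested member of 18 lists (points; red risen, blue fallen, grey not past adjusted p 0.05; bars are medians). Immediate early genes, heat shock proteins and ER chaperones lie mainly right of 0, and meningeal, myelin, cholesterol and haemoglobin genes lie mainly left of it.

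Genes of blood, vessels and the coverings of the brain were lower at day 14. In bulk tissue fewer cells of a type and less RNA per cell cannot be told apart, and this holds for every cell type below. Hba-a1, an alpha globin of red cells, had 262, 377 and 325 FPKM at day 1 and 183, 117 and 168 at day 14 at 1/10 LD50. Values at 1/5 LD50 were 313, 150 and 236 FPKM against 111, 60.4 and 78.9, and at 1/2 LD50 390, 256 and 311 against 128, 144 and 92.9. The days did not overlap within any dose, but the lowest day-1 library, at 150 FPKM, lay under the highest day-14 libraries of another dose. Hba-a1 fell by 1.29 (SE 0.19, adjusted p 1.56e-05), a 2.42-fold drop of the mean FPKM. Saline had 267 to 300 FPKM, and against it Hba-a1 differed by 0.00 at day 1 (adjusted p 0.999) and by -1.3 at day 14 (adjusted p 0.00963). Leaving out any 1 saline library gave an adjusted p of 0.0612 to 0.0843 for the latter.

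Of 7 tested haemoglobin and erythroid genes 5 fell, and 4 fell without the 5 libraries. These were Hba-a1, Hbb-bs (-1.29), Hbb-bt (-1.33) and Alas2 (-1.01), the haem-making enzyme of red cells, while Hba-a2 (-1.34) had an adjusted p of 0.0566 there. The globin genes come as near-identical copies, so their separate values are uncertain. Bpgm, which other brain cells also express, had -0.10 and did not pass. The summed level of the list was 502 to 1249.6 FPKM at day 1, 313 to 657 at day 14 and 943 to 1045 in saline. Its part in the other falls, through the amount of blood left in the tissue, was not tested.

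Eln, which encodes elastin of vessel walls, had 6.87, 8.42 and 7.51 FPKM at day 1 and 2.92, 3.10 and 3.83 at day 14 at 1/10 LD50. Values at 1/5 LD50 were 7.76, 8.72 and 8.23 FPKM against 4.07, 5.46 and 4.43, and at 1/2 LD50 11.4, 11.2 and 10.7 against 4.46, 2.68 and 4.20. Every day-14 library lay below every day-1 library, and saline (5.43 to 7.85 FPKM) lay between the days, touching both. Eln fell by 1.03 (SE 0.10, adjusted p 2.14e-08).

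Among genes of pericytes and vessel muscle 5 of 14 fell and none rose, 4 of them without the 5 libraries, with Pdgfrb, the growth factor receptor of pericytes, at -0.44 (adjusted p 1.32e-07). The muscle genes Acta2, Tagln and Myh11 had 0.17, 0.03 and -0.06 and did not pass. Of 20 endothelial genes 5 fell, all of them receptors, adhesion or clotting proteins: Vwf (-0.57), Kdr (-0.51), Tek (-0.33), Tie1 (-0.26) and Cdh5 (-0.18). Kdr, the main receptor of VEGF, had 5.57 to 7.84 FPKM at day 1 and 3.69 to 4.60 at day 14, with no overlap, and saline had 6.11 to 6.88. The endothelial markers Cldn5 (-0.09) and Pecam1 (-0.10) did not pass. Slc2a1, the glucose transporter of the barrier, and Ly6a rose by 0.25 and 0.75, but neither did without the 5 libraries, where 3 endothelial genes fell.

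Meningeal fibroblast genes fell in 14 of 22 tested and rose in none, with a median of -0.25, and 9 fell without the 5 libraries. Col3a1, a fibrillar collagen, had 4.43 to 6.62 FPKM at day 1 and 2.68 to 3.33 at day 14, with no overlap, and saline had 5.44 to 6.52. It fell by 0.63 (SE 0.08, adjusted p 1.19e-06). The other collagens Col6a2 (-0.59), Col1a2 (-0.54), Col1a1 (-0.50) and Col6a1 (-0.44) fell too, as did Igf2 (-0.42) and the transporter Slc6a13 (-0.22). Not all members of the list moved: the proteoglycans Dcn and Lum had -0.08 and -0.17, and the abundant prostaglandin enzyme Ptgds -0.04. At day 1 none of the 22 differed from saline by the test, and at day 14 10 were below it, but 6 without saline replicate 3 and 3 without saline replicate 1. Of 16 choroid plexus genes 2 fell (12.5%, against 7.67% of all tested genes), Slc13a4 (-0.34), which is also on the meningeal list, and F5 (-0.23). Only 1 fell without the 5 libraries, with a pseudocount of 0.1, or on leaving out any of 8 single libraries. None of 11 ependymal genes passed.

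Microglial genes fell in 8 of 20 tested, with a median of -0.21, but in only 1 without the 5 libraries and in 2 without day 14 1/2 LD50 replicate 2. P2ry12, a purine receptor of resting microglia, had 7.55 to 13.1 FPKM at day 1 and 5.80 to 9.56 at day 14, with overlap, and fell by 0.43 (SE 0.09, adjusted p 0.00221, and 0.036 without the 5). The complement genes C1qa, C1qb and C1qc (-0.23, -0.07 and -0.04) did not pass. No gene of the interferon list (20 tested) or of antigen presentation (21 tested) passed in either direction between the days. Against saline, 7 of the 20 interferon genes were lower at day 1 and 8 at day 14, but none was at either day without saline replicate 2 or without saline replicate 3.

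Cells of the oligodendrocyte lineage had lower levels at day 14. Opalin, a membrane protein of mature oligodendrocytes, had 10.3, 8.10 and 9.01 FPKM at day 1 and 7.00, 5.48 and 7.27 at day 14 at 1/10 LD50. Values at 1/5 LD50 were 10.4, 9.70 and 9.58 FPKM against 7.03, 7.08 and 7.31, and at 1/2 LD50 15.5, 11 and 12.6 against 5.18, 5.38 and 7.19. All day-14 libraries were below all day-1 libraries, with the widest gap at the highest dose (F-test for a difference between doses, adjusted p 0.401). Opalin fell by 0.62 (SE 0.08, adjusted p 1.72e-06). It was 0.48 above saline at day 1 (adjusted p 0.0393, and 0.124 to 0.297 without any 1 saline library) and 0.14 below it at day 14 (adjusted p 0.705).

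Of 20 myelin genes 10 fell and none rose, with a median of -0.25. The count was 2 without the 5 libraries and 4 without any of 4 single libraries: day 1 replicate 1 of 1/10 LD50, replicate 2 of 1/5 LD50, replicate 1 of 1/2 LD50, and day 14 replicate 1 of 1/2 LD50. The abundant myelin protein Mbp (-0.21) did not pass. By dose, 0, 0 and 8 of the 20 fell at 1/10, 1/5 and 1/2 LD50, but none passed the test for a difference between doses. Among 20 progenitor and newly formed oligodendrocyte genes 10 fell, 5 of them without the 5 libraries. Pdgfra, the growth factor receptor of progenitors, had 8.75 to 11.1 FPKM at day 1 and 7.12 to 8.68 at day 14, with no overlap, and fell by 0.31 (adjusted p 3.01e-05). Enpp6 and Gpr17, which mark cells about to myelinate, fell by 0.44 and 0.35.

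Cholesterol synthesis, a pathway that oligodendrocytes and astrocytes run for membranes, moved in the same direction. Of 22 genes 14 fell and none rose, with a median of -0.24, and 5 fell without the 5 libraries. The enzymes Lss and Hmgcs1 fell by 0.43 and 0.40. Lss had 7.49 to 10.9 FPKM at day 1 and 5.57 to 7.21 at day 14, with no overlap. By dose 1, 0 and 10 fell at 1/10, 1/5 and 1/2 LD50, with medians of -0.14, -0.12 and -0.43, and none passed the test for a difference between doses. The sterol element TCACNCCAC, where N is any base, was found in 1 of 15 promoters with an entry (Hmgcs1), against 1.05% of all.

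Few members of the channel and receptor lists passed. No voltage-gated channel of 23 and no AMPA or NMDA receptor subunit of 10 passed, and Gabra3 (0.16) alone rose of 15 GABA-A receptor subunits, though not without the 5 libraries (adjusted p 0.151). Of 21 neuropeptide genes 5 rose (23.8%, against 7.27% of all tested genes). They were Sst (0.34), Tac2 (0.32), Penk (0.26), Tac1 (0.26) and Nts (0.24). Sst and Tac1 kept an adjusted p below 0.05 without the 5 libraries, at 0.0184 and 0.0425. Tac1 was lost on leaving out any of 3 single libraries (adjusted p up to 0.0577), and Sst on none. Sst, the somatostatin of a class of inhibitory neurons, had 78.3 to 119 FPKM at day 1 and 115 to 142 at day 14. None of 13 mitochondrially encoded messenger RNAs passed, with a median of -0.20, and mitochondrial genes took 8.67 to 12.4% of the FPKM at day 1 and 8.09 to 15.4% at day 14.

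The target of soman and its partners were tested as a list of 14 cholinergic genes. Ache, the acetylcholinesterase, had 28.5, 24.5 and 27.1 FPKM at day 1 and 30.9, 24.3 and 31.0 at day 14 at 1/10 LD50. Values at 1/5 LD50 were 28.1, 29.3 and 28.3 FPKM against 32.7, 29.5 and 30.4, and at 1/2 LD50 39.2, 27.9 and 33.6 against 26.4, 32.6 and 33.8. The days overlapped over doses, and the difference was 0.03 (SE 0.08, adjusted p 0.829). Bche, the related plasma-type enzyme, had -0.12 (adjusted p 0.276). Chat, which makes acetylcholine, rose by 0.30 (SE 0.10, adjusted p 0.0365) and the muscarinic receptor Chrm4 by 0.26 (adjusted p 0.0325). Neither passed without the 5 libraries (adjusted p 0.158 and 0.212). Chat, at 1.25 to 2.36 FPKM, was lost on leaving out any of 12 single libraries, and Chrm4 on any of 8. The levels are of messenger RNA, and the activity of the enzyme was not measured.

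The 3 doses were then read against each other. Their comparisons share no library, so a gene called at 1 dose can be looked up at the others. The lowest dose had 416 genes past the test (2.83%), 175 higher (1.19%) and 241 lower (1.64%). The middle dose had 284 (1.93%), 225 higher (1.53%) and 59 lower (0.401%). The highest dose had 595 (4.05%), 217 higher (1.48%) and 378 lower (2.57%). Falls were thus in the majority at the lowest and highest dose and rises at the middle dose. Without the 5 libraries the lowest dose had 47 (0.32%), 37 higher (0.252%) and 10 lower (0.068%). The highest dose then had 176 (1.2%), 71 higher (0.483%) and 105 lower (0.714%), and the middle dose 0 (0%). There limma called 0 genes, and 1220 had an unadjusted p below 0.05. Leaving out any 1 of 5 of the 6 libraries of a dose lowered its count by more than 1.5 times. The exceptions were day 1 replicate 1 of 1/10 and of 1/5 LD50 and day 1 replicate 2 of 1/2 LD50. The lowest counts, 168, 46 and 219, came without day 1 replicate 2 of 1/10, day 14 replicate 3 of 1/5 and day 1 replicate 1 of 1/2 LD50.

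Genes called at one dose nearly all pointed the same way at the others. Of the 416 called at 1/10 LD50, 371 (89.2%) had the same sign at 1/5 LD50 and 395 (95.0%) at 1/2 LD50. Over all tested genes the signs matched in 59.3% and 65.1%. Of the 284 called at 1/5 LD50, 253 (89.1%) had the same sign at 1/10 and 259 (91.2%) at 1/2 LD50. Of the 595 called at 1/2 LD50, 546 (91.8%) had it at 1/10 and 509 (85.5%) at 1/5 LD50. Signs thus agreed more often among called genes than among all, for each of the 6 readings.

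Sizes and calls agreed less than signs. Genes called at a dose had a median size of 0.36 to 0.42 there and of 0.18 to 0.25 at the other doses. Between 1/10 and 1/2 LD50, 159 genes were called at both in the same direction, 38.2% of the 416 and 26.7% of the 595. Between 1/10 and 1/5 LD50 there were 80 (19.2% and 28.2%), and between 1/5 and 1/2 LD50 86 (30.3% and 14.5%). Across all genes, which are not independent replicates, the differences correlated with Pearson's r of 0.359 for 1/10 with 1/5 LD50, 0.325 for 1/10 with 1/2 and 0.303 for 1/5 with 1/2. All 3 doses share the days on which brains were taken, so agreement between doses does not separate soman from anything else that differs between those days.

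**Figure D3:**
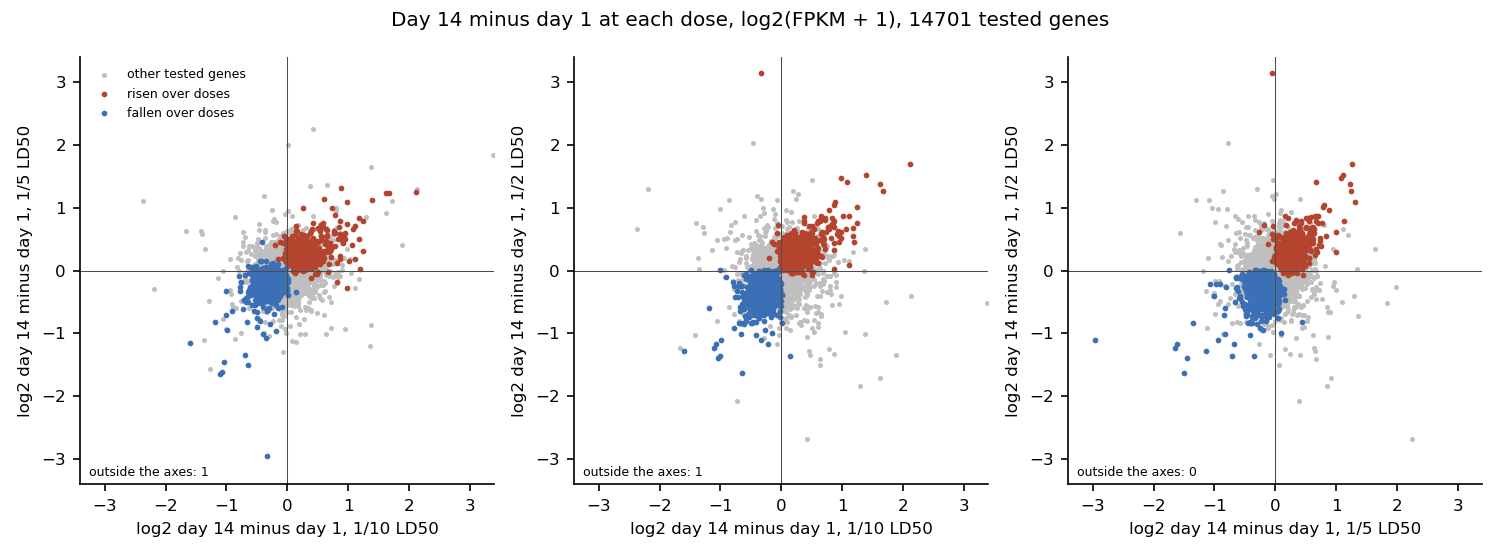
Difference between day 14 and day 1 on the log2(FPKM + 1) scale at 1 dose against another, for 14701 genes (points; red and blue risen and fallen over doses, grey other). Called genes lie mainly in the lower left and upper right of each panel, and these genes were called on the same values.

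At all 3 doses 53 genes passed, 36 higher and 17 lower, and each went the same way at every dose. At 2 doses or more 220 passed. In opposite directions at 2 doses 1 gene passed. Of the 36 higher genes 13 were immediate early genes, 6 ER genes and 7 heat shock proteins. The other 10 included P4ha1, an enzyme of collagen folding (0.55), Trib1 (0.73), Pfkfb3, which speeds glycolysis (0.42), and the Hsp70 partner Dnaja4 (0.32). None of the 17 lower genes was in those 3 lists. They included the basement membrane genes Col4a1 (-0.45), Col4a2 (-0.41) and Lama4 (-0.43) and Fbn1, fibrillin of elastic fibres (-0.45), next to Eln and Pdgfrb. P4ha1, Trib1, Pfkfb3, Dnaja4, Col4a1, Col4a2, Lama4 and Fbn1 were picked as examples after their values were seen. They kept an adjusted p below 0.05 over doses without the 5 libraries, of 0.00118 or less.

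The lists differed in how evenly they were called over doses. Of the immediate early genes 18, 19 and 24 rose at 1/10, 1/5 and 1/2 LD50, with medians of 0.55, 0.54 and 0.62. ER genes rose in 15, 9 and 9, with medians of 0.44, 0.20 and 0.25, and heat shock proteins in 15, 10 and 9. Meningeal genes fell in 7, 0 and 10, with medians of -0.34, -0.13 and -0.34. A count that differs between doses is not a test, and no member of these 4 lists passed the test for a difference between doses.

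That test, an F-test on the differences among the 3 dose comparisons, called 4 genes (0.0272%) with all 18 libraries and 1, Rpl30, without the 5. By unadjusted p below 0.05 it had 1277 and 574. Rpl30, a ribosomal protein, had 9.58, 6.60 and 8.77 FPKM at day 1 of 1/2 LD50, against 104 to 134 at day 1 of the lower doses and 64.2 to 142 at day 14. Its difference was -0.33, -0.05 and 3.15 from the lowest to the highest dose (F-test adjusted p 5.79e-05, and 0.0149 without the 5 libraries), and saline had 59.0 to 72.1 FPKM. All of it rests on the 3 libraries of 1 group. Ribosomal protein genes have many processed copies in the genome, to which reads can be assigned, so the value is uncertain. The 45 ribosomal protein genes tested had medians of 0.11, 0.12 and 0.02 at the 3 doses.

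Ttpa, the vitamin E transfer protein, went in opposite directions. At 1/10 LD50 it had 1.5, 1.09 and 1.48 FPKM at day 1 and 2.28, 2.82 and 2.62 at day 14. At 1/2 LD50 it had 2.57, 1.99 and 2.23 FPKM at day 1 and 1.11, 1.39 and 1.07 at day 14, while the days overlapped at 1/5 LD50. Its differences were 0.60, -0.16 and -0.57 (F-test adjusted p 0.00245, and 0.162 without the 5 libraries). Dbp, a clock output factor whose level swings over the day, had differences of -0.42, 0.45 and -0.81 (F-test adjusted p 0.00245, and 0.203 without the 5). At 1/5 LD50 it went from 29.8, 27.2 and 29.1 FPKM to 42.3, 37.6 and 38.6, and at 1/2 LD50 from 38.7, 36.6 and 36.0 to 24.0, 21.2 and 17.3. The predicted gene Gm3373 had 2.22 to 2.76 FPKM at day 1 of 1/2 LD50 and at most 0.33 at day 1 of the other doses, with an F-test adjusted p of 0.0339 (0.739 without the 5). At day 14 it had 0.157, 2.39 and 0.814 FPKM in the 3 libraries of 1/5 LD50, so the spread there was wide.

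**Figure D4:**
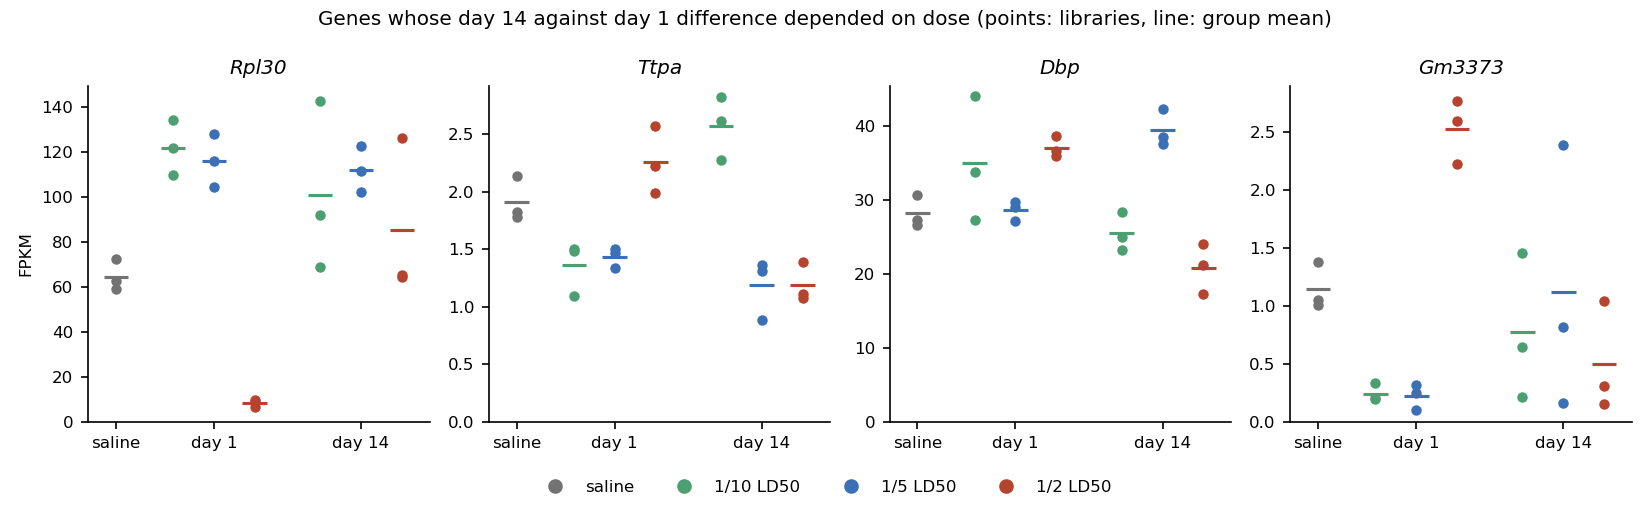
Level in FPKM of the 4 genes of the dose test in each saline, day-1 and day-14 library (points, coloured by dose; lines are means of 3). Rpl30 is low only in the 3 libraries of 1/2 LD50 at day 1, and Ttpa crosses between the lowest and the highest dose.

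Levels at the days between show where the 2 days sit. Over doses and against saline, 11 genes were higher (0.0748%) and 45 lower (0.306%) at day 1, and 23 higher (0.156%) and 110 lower (0.748%) at day 14. Days 3 and 7 differed from saline in far more genes, with 949 higher and 1409 lower at day 3 (6.46% and 9.58%) and 602 and 1545 at day 7 (4.09% and 10.5%). The libraries of days 3 and 7 summed to 309915 to 342231 FPKM, against 296322 to 316802 in saline. Day 7 replicates 2 and 3 of 1/10 LD50 had 23.1 and 27.6% of FPKM in mitochondrial genes, against 7.17 to 11.9% in saline. The part of these library differences in the counts was not tested. Saline libraries were left out only for days 1 and 14. Without saline replicate 3 the counts were 2 higher and 15 lower at day 1 and 4 higher and 29 lower at day 14. All these share the saline libraries and are given as values only. Immediate early genes had medians against saline of -0.25, -0.38, -0.02 and 0.26 at days 1, 3, 7 and 14. ER genes had -0.34, -0.26, -0.17 and 0.02. Meningeal genes had -0.10, -0.44, -0.52 and -0.36, so that they were nearest to saline at day 1, and haemoglobin genes had -0.13, -0.33, -0.25 and -1.3. Cholesterol genes had 0.02, 0.12, -0.09 and -0.18.

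**Figure D5:**
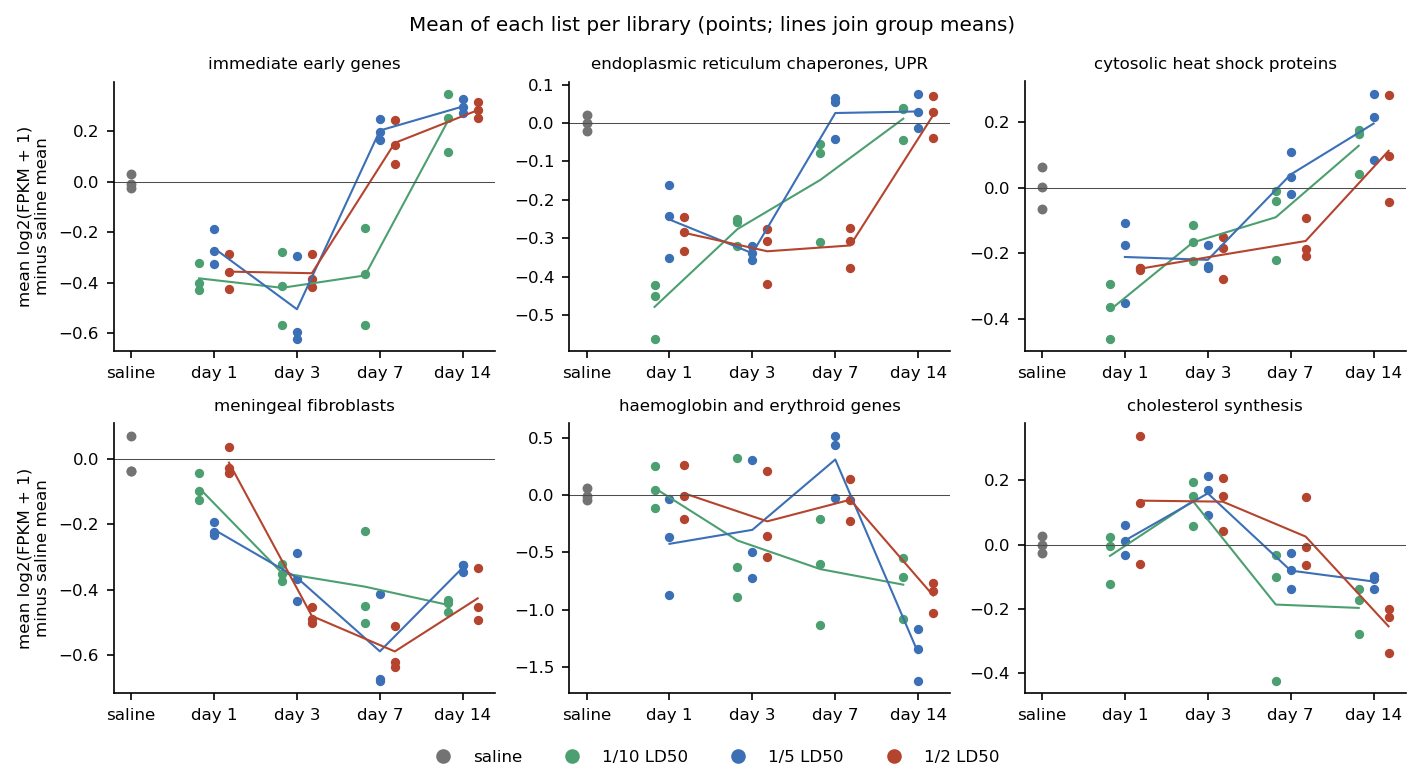
Mean log2(FPKM + 1) of 6 lists in each library, less the saline mean, by day (points, coloured by dose; lines join group means). Immediate early and ER genes are below saline at day 1 and at or above it at day 14, and haemoglobin genes are lowest at day 14.

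The genes named next were among the 15 largest rises or falls. Rps2, a ribosomal protein, fell by 1.26 over doses (adjusted p 0.0333), from 12.6 to 100 FPKM at day 1 to 9.28 to 21.0 at day 14. It did not pass without the 5 libraries (0.258) or on leaving out any of 10 single libraries. Rps2 was the only fall (2.22%) in the list of 45 ribosomal protein genes, where 3 rose (6.67%). Of all tested genes 7.67% fell and 7.27% rose. The 3 that rose were Rpl30, Rpl27 and Rpl24. Without the 5 libraries Rpl30 alone rose in this list and none fell. The rise of Rpl30 rests on the low day-1 libraries of 1/2 LD50 given above. Eno1b, a copy of the glycolytic gene enolase, fell by 0.83 (adjusted p 0.00391, and 0.0659 without the 5). Reads of Rps2 and Eno1b can be shared with near-identical copies. Gkn3, found in arterial endothelium of the brain, fell by 0.69 and had 2.52 to 4.98 FPKM at day 1 and 1.3 to 2.37 at day 14, with no overlap. Fn1, fibronectin, and the amino acid transporter Slc38a5 both fell by 0.59, again with no overlap between the days. The mitochondrial transfer RNA gene TrnV rose by 0.77 (adjusted p 0.00488) and the microRNA locus Mir6945 fell by 0.61 (adjusted p 0.00249), but such short genes are poorly measured by poly(dT)-selected libraries.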

How the data were processed

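Brain RNA was enriched on poly(dT) beads before sequencing, per the labels' protocols. The submitters' processing notes name HISAT2, without a version, and the human build GRCh38 although the samples are mouse, so no coordinates from the deposited table are used. The authors deposited FPKM for 47561 genes in 39 libraries, and the program behind them is not given in the sources used here. Read counts were not used, so the depth of a library, and with it the precision of a value, is unknown.

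Groups came from the labels. log2(FPKM + 1) of genes at 1 FPKM or more in at least 3 libraries was fitted with limma 3.58.1 (R 4.3.3, eBayes with trend) as a single model with 13 groups. Contrasts were day 14 minus day 1 at each dose and their mean, an F-test of their differences, and each day against saline. Adjusted p values are Benjamini-Hochberg values over all 14701 genes, with a threshold of 0.05. P values set each difference against the spread within groups, which the main model estimated from all 39 libraries. They treat every library as independent, including those that lie between others.

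The comparison and the 39 gene lists were chosen with earlier results of these data known. The rule for named genes took the 15 largest rises and 15 largest falls with 1 sign at all doses, up to 8 of the F-test, up to 3 of smallest p in each list, all at 2 FPKM or more in a group and none a predicted or clone locus, and Ache, Bche and Chat. Other genes are named as list members, as the only ones past a test, or as examples picked after their values were seen. Promoters are from RefSeq (GRCm38.p6). The alternatives changed the pseudocount (to 0.1), the filter (none) or the scaling (median ratio), kept only the 18 libraries in the model, or used the replicate number as a block. Further ones were the removal of a transcript-length trend (GENCODE vM21), leaving out each library in turn, and leaving out the 5 libraries. Saline libraries were left out in turn as a setting added after seeing the data. The code was tested on simulated data.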

Additional observations from a re-analysis of the deposited data

Results flagged for a closer look

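In 4 genes the difference between day 14 and day 1 itself differed between doses by the F-test of limma. They were Rpl30 (adjusted p 5.791e-05), Ttpa (0.002451), Dbp (0.002451) and Gm3373 (0.03386). Rpl30 and Dbp kept an adjusted p below 0.05 whichever 1 of the 18 libraries was left out, with highest values of 0.000816 and 0.0156, as did Ttpa (0.0185). Gm3373 did not, with values up to 0.173, and 11 of the 18 libraries cost it the call. Gm3373 also lost it with a pseudocount of 0.1 (0.114), with no filter (0.076), with only the 18 libraries in the model (0.13) and there with a replicate block (0.0865). Dbp lost it with the replicate block over 18 libraries (0.0634). Without the 5 libraries Ttpa, Dbp and Gm3373 lost it (0.162, 0.203 and 0.739) and Rpl30 kept it (0.0149).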

How the results depend on the processing

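Without the 5 libraries that lie between others the counts over doses were 792 in all, 404 higher and 388 lower, and 780 called genes had the same sign at all doses. The 3 doses then had 47, 0 and 176 genes and the dose F-test 1. With 18 libraries in the model the lowest and highest dose had 782 and 947 genes and the F-test 19. Without a filter the middle dose had 185. When 1 library was left out, the counts were 1748 to 2086 over doses, 168 to 428 at the lowest, 46 to 331 at the middle and 219 to 611 at the highest dose, and 3 to 18 in the F-test, which had 14, 13 and 18 without day 14 replicate 1 of 1/10 LD50, replicate 1 of 1/5 LD50 and replicate 2 of 1/2 LD50. For Ache the range was -0.008904 to 0.07047, and the sign turned without day 1 1/2 LD50 replicate 2. Against saline, leaving out 1 saline library gave 2 to 5 genes higher and 15 to 31 lower at day 1, and 4 to 5 higher and 29 to 36 lower at day 14. Leaving out saline replicate 3 and the 5 libraries gave 1 and 6 at day 1, and 2 and 8 at day 14. The cause of these changes was not tested, apart from the fewer libraries in them.

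With the replicate number as a block (replicate block, 18 libraries) the lowest dose had 661 genes and the F-test 10, and in the model of 13 groups the count over doses was 2139. Same-numbered libraries of a dose correlated at -0.212 to 0.165 in their deviations, and 8 of 18 correlated best with their own number. The main model did not pair libraries by number, and handling shared by a number was not tested. Each of the 98 named genes kept its direction in every setting, apart from Ache, whose sign turned without day 1 1/2 LD50 replicate 2. Without the 5 libraries 67 of the 98 stayed on their side of the threshold. Median lengths were 3178 bases in risen, 3861 in fallen and 3281 in all tested genes with a length.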

Other observations

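Some further groups had a few members past the test. Of 18 p53 and apoptosis genes 5 rose and 1 fell (3 and 1 without the 5 libraries), with 9 differences above 0, 9 below and a median of 0.03. The share of all tested genes that rose was 7.27%, and 7.67% fell. The rises were led by Cdkn1a (0.59) and Gadd45a (0.38). Among 17 genes of neurogenesis Eomes, a factor of dividing neuronal precursors, rose by 0.68 (adjusted p 9.16e-05), from 0.363 to 1.57 FPKM at day 1 to 1.26 to 3.12 at day 14. Saline had 1.75 to 2.85 FPKM of Eomes. Stmn1 rose by 0.26, and Dcx and Sox4 fell by 0.30 and 0.19. In all, 3 of the 17 rose (17.6%) and 2 fell (11.8%), and without the 5 libraries 2 rose and none fell. The count of falls in this list also changed on leaving out any of 10 single libraries. Of 6 proliferation genes tested Pcna rose (0.25, 16.7% of the list), and Ccna2 (-0.35) and Mcm3 (-0.28) fell (33.3%).

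Of 20 genes of vesicle release Snap25 (0.23), Cplx1 (0.16) and Nsf (0.11) rose (15% of the list), none of them without the 5 libraries. Of 72 nuclear genes of the respiratory chain 5 rose (6.94%), near the 7.27% of all tested genes, and none did without the 5. Txnrd1 (0.21) alone rose among 20 antioxidant genes (5%, below the share of all tested genes). Of 18 astrocyte genes Aqp4 (-0.30), Slc1a2 (-0.28) and Sox9 (-0.19) fell and Gjb6 (0.27) rose, and 1 fell without the 5 libraries. These are 16.7% fallen and 5.56% risen, against 7.67% and 7.27% of all tested genes. Of 13 reactive astrocyte genes Fbln5 fell (-0.29), with an adjusted p of 0.00576 and of 0.078 without the 5 libraries. That is 7.69% of the list, near the 7.67% of all tested genes. No gene of the cerebellum list (18 tested) passed, and in the lists of striatum, hippocampus, cortex, and thalamus and habenula 2, 1, 2 and 2 genes rose, with 1 fall in the last, Plekhg1 (-0.22). These shares of 7.69 to 16.7% rest on 12 to 16 tested genes a list, against 7.27% of all genes, and without the 5 libraries 1, 0, 0 and 0 rose.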
